A study of Mus musculus with 6 samples.

Results

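The genes described here encode the channels through which calcium enters the cytosol from outside the cell or from its stores, and the pumps that clear it. They were taken from the platform annotation by symbol. Voltage-gated calcium channel subunits (Cacna, Cacnb and Cacng), TRPC, TRPV and TRPM channels, inositol trisphosphate and ryanodine receptors, the store-operated Stim and Orai genes, Piezo channels and the calcium ATPases (Atp2a, Atp2b and Atp2c) were included. A gene was kept when a probe set named it alone, which gave 64 of the 18193 genes measured this way, and each was read by its brightest probe set. The rule itself uses symbols and no levels, but it was set with earlier results of these data known. Of 70 such symbols listed, 6 were not analysed here. The symbol rule also takes in Trpc4ap, which encodes a TRPC4-binding protein and not a channel.

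The levels were compared between 3 samples of juxtaglomerular (JG) cells, the renin-secreting cells at the wall of the afferent arteriole, and 3 samples of renal mesenchymal stromal cells (MSC). Every sample came from adult C57BL6 mice with the genotype Ren1c YFP, in which YFP is a fluorescent reporter of renin cells. JG cells were collected as YFP+ cells by flow sorting, and MSC were sorted with CD44 and then cultured to confluence. The medium entry on the JG samples is the one for MSC (DMEM with serum), so whether JG cells were cultured cannot be told from it, and the labels do not say how many animals gave each sample. A difference between the groups therefore joins cell type, sorting and culture, which cannot be told apart. Intensities are linear probe set values and are listed for samples 1, 2 and 3 in that order, and means carry the SD over n = 3. Differences are JG minus MSC on the scale of log2(intensity + 16) with their SE from limma, and a gene was called at an adjusted p under 0.05 over all 18193 genes. Because 16 is added, differences of dim genes are understated. An intensity under 16 is treated as dim and not as absence, and levels of different genes are not set against each other because probe sets differ in their response. Levels are those of the brightest probe set unless another is named.

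Resting cells hold cytosolic calcium far below the level outside, and channels open it to the cytosol while pumps of the plasma membrane, the reticulum and the secretory pathway return it. JG cells are known for an inverted use of this signal, in which a rise of calcium lowers renin release, whereas in most secretory cells it raises release. In smooth muscle and stromal cells the same channels serve contraction, stretch sensing and growth, and in the distal nephron TRPV and TRPM channels take up calcium and magnesium from the urine.

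The arrays were similar in scale, with medians from 27.3 to 36.5. JG sample 1 stood nearest to MSC (r = 0.802 to 0.812 across genes, against 0.675 to 0.775 for the other JG samples). It correlated with JG sample 2 at only 0.797, below its values with MSC, and with JG sample 3 at 0.882. JG samples 2 and 3 correlated at 0.882, and the MSC samples with each other at 0.971 to 0.975. The JG samples were more spread out than the MSC samples, with a median SD per gene of 0.55 against 0.26 (log2). Of 6 JG markers 2 were called higher in JG and 0 higher in MSC by limma. Of the 6, 5 had an unadjusted p under 0.05, against 5804 of all 18193 genes. The called ones were Crip1 and Rgs5, a regulator of G protein signalling, which stood at 86.4, 48.3 and 308 in MSC and at 1105, 2343 and 2120.3 in JG. Aldh1a1 lay lower in JG, at 843, 336 and 627 in MSC and 237, 89.4 and 199.5 in JG (-1.69 ± 0.47, adjusted p = 0.0611), Agtr1a, Gja5 and Kcnj8 were not called either, and renin itself was not analysed here. Of 8 mesenchymal stromal markers 2 were called higher in MSC and 2 higher in JG. The sort antigen gene Cd44 stood at 1005, 1035 and 881 in MSC and at 153, 119 and 144 in JG, and Itgb1 was the other higher in MSC. Thy1, another stromal surface marker, stood at 159.9, 178 and 116 in MSC and at 1589.8, 902 and 1325 in JG, against its label, as did Nt5e with 29.9, 19.9 and 43.1 in MSC and 113, 939 and 645 in JG. Markers of other kidney cells were also bright in JG. The proximal tubule list passed the test for 9 of 9 in the direction of JG, with a summed intensity of 28123 to 35424 in JG and 347 to 627 in MSC. For the thick ascending limb these were 6 of 7 markers (9092 to 13051 against 127 to 480.2), for the distal and connecting tubule 6 of 7 (4169.7 to 15393 against 175 to 339) and for the collecting duct 7 of 9 (4789 to 7348 against 89.8 to 96.8). Endothelial markers were higher for 6 of 8 (701 to 1074 against 63.3 to 68.0) and leukocyte markers for 4 of 9 (1665 to 4025 against 92.7 to 438). Of 5 podocyte markers 1 was higher in JG and 2 in MSC (521 to 1987 against 2436 to 4591), and of 8 smooth muscle markers 1 and 5 (2112 to 2259 against 15754 to 20729). No marker was listed at 0, but 868 to 1311 probe sets on each array stood at exactly 1. The lack of a 0 therefore does not show that a marker was detected. The part of these other cells in each difference below was not tested, and in such bulk samples fewer cells of a type and less RNA per cell cannot be told apart.

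Of the 64 genes, 6 were called higher in JG (9.38%) and 5 higher in MSC (7.81%). Over all genes the shares were 7.7% and 7.71%, and 15.4% in either direction, so the family as a whole was called about as often as any other genes. The 6 higher in JG were Cacna1d, Itpr2, Trpc1, Trpv4, Atp2b1 and Trpv6. The 5 higher in MSC were Piezo2, Piezo1, Cacng7, Cacna2d1 and Orai2. The groups did not overlap for 25 genes, 18 with JG above and 7 with MSC above. That is 39.1% of them, and over all genes it was 38.9%, of which 20.2% with JG above and 18.7% with MSC above. The median difference was 0.15, and it was 0.07 over all genes. On all 6 arrays 12 of the 64 lay under 16 by their brightest probe set, and 18 had a group mean above the median of the higher group mean over all genes, which was 116. In each of the 6 fits that left out 1 sample, 4 of the 11 calls held: Cacna1d, Itpr2, Trpc1 and Piezo2.

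**Figure D1:**
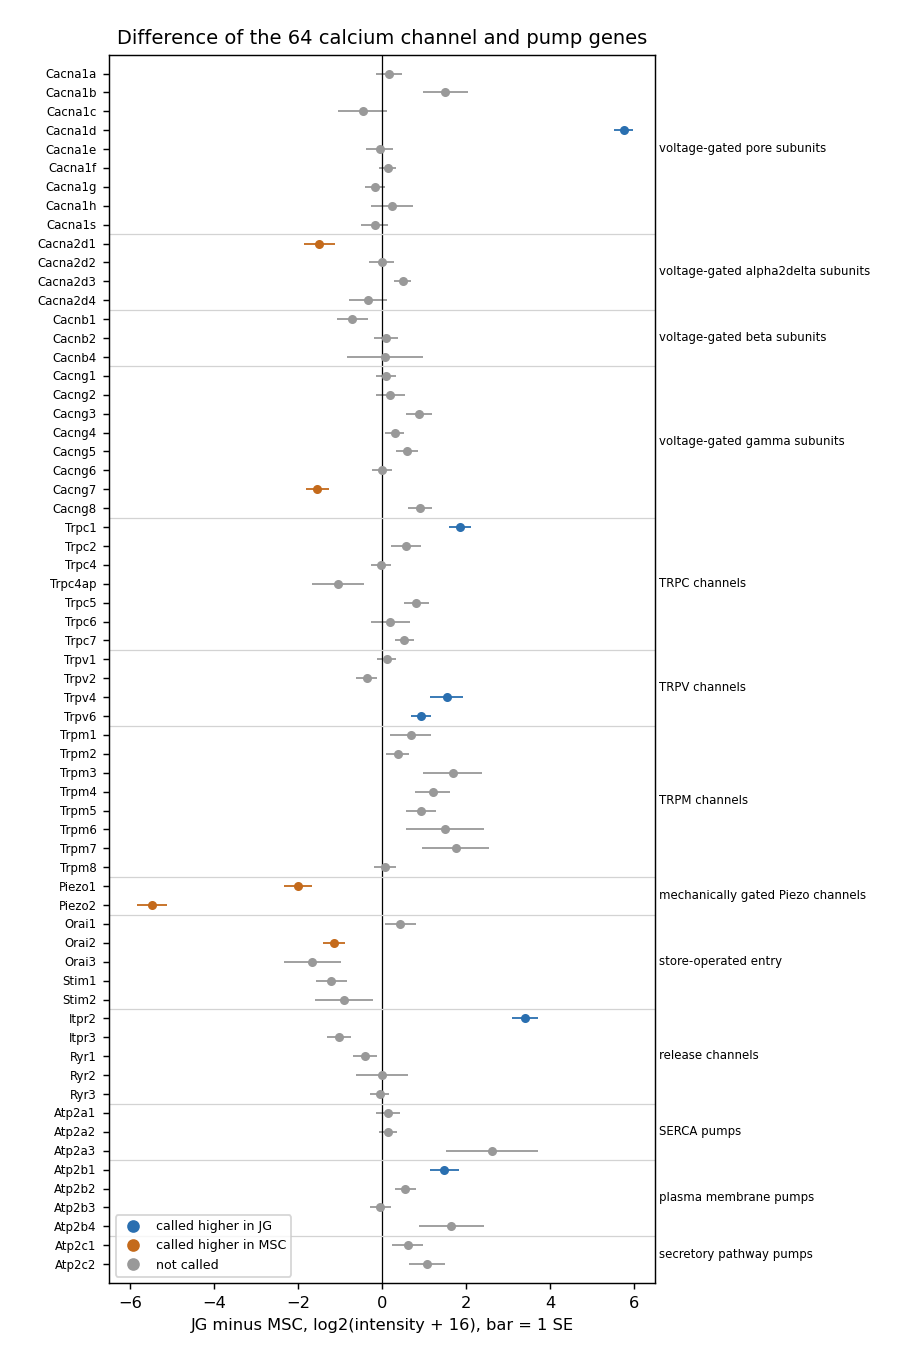
Difference JG minus MSC on the log2(intensity + 16) scale for the 64 genes, ordered by role, with bars of 1 SE and colours for the limma call. Cacna1d at 5.75 and Piezo2 at -5.48 lie farthest from 0, and most of the others lie within 2 units of it.

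Voltage-gated calcium channels open on depolarisation and consist of a pore subunit with auxiliary subunits. Cacna1d, which encodes the pore of an L-type channel that opens at relatively negative voltages, stood at 3.35, 5.78 and 4.4 in MSC and at 1293, 944 and 1049.6 in JG. Every JG sample was bright and every MSC sample lay under 6. The group means were 1095 ± 179 and 4.51 ± 1.22 (n = 3 each), and the difference of 5.75 ± 0.23 (adjusted p = 6.69e-05) is a lower bound on the size because MSC lay under 16. The adjusted p stayed between 0.000289 and 0.00173 when 1 sample was left out. A second probe set of Cacna1d gave 2.56, 3.68 and 8.22 in MSC and 4.77, 30.3 and 44.3 in JG. There JG sample 1 lay within the MSC range and the difference was 0.90 ± 0.43 (adjusted p = 0.215 over all probe sets). The call therefore rests on 1 of the 2 probe sets, and that probe set carries the suffix s, which marks possible matches to several transcripts.

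RefSeq (GRCm38.p6) gives Cacna1d 2 transcription starts, and the 250 bases before each are printed because the gene had the largest difference of the 64 and its starts lie in unlike sequence. Capitals mark matches on either strand to the GC box with the letters GGGCGG, the CCAAT box with its own name as letters, the TATA box with the letters TATAAA, the core of the cyclic AMP response element with the letters TGACG, the TEAD element with the letters GGAATG and the CArG box of serum response factor. Over 32851 such windows of the genome these 6 motifs, in that order, occurred in 32.7%, 33.8%, 12.4%, 17.8%, 12.6% and 1.47%. The windows lie at chr14:30491157-30491406 on the minus strand and at chr14:30353487-30353736 on the minus strand.
Cacna1d, first start: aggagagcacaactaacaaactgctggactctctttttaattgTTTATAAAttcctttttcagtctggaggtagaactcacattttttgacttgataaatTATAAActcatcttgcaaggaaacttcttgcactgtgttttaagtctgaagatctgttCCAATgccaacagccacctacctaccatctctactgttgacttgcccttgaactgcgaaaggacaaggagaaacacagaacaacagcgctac
Cacna1d, second start: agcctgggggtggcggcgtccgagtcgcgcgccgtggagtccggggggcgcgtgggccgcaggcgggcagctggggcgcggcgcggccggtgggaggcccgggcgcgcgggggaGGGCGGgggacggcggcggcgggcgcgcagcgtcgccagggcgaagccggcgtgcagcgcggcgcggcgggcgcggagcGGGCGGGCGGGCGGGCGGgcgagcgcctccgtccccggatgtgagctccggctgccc
The first window has 39.6% G and C, 2 CpG pairs and 3 matches to TATAAA, of which 2 overlap. The second has 86.4% G and C, 50 CpG pairs and 5 matches to the GC box, some of which overlap. From which start the measured transcripts came was not analysed here.

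No other pore gene was called among the 9 measured. Cacna1b, the pore of neuronal N-type channels, stood at 21.0, 17.0 and 16.1 in MSC and at 26.4, 164 and 101 in JG. JG samples 2 and 3 were high and sample 1 lay just above the MSC range (1.502 ± 0.53, adjusted p = 0.111). Cacna1c, the main L-type pore of smooth muscle, stood at 57.7, 57.9 and 117 in MSC and at 15.2, 127 and 45.1 in JG. Its groups overlapped (-0.47 ± 0.59, adjusted p = 0.624). A second probe set of Cacna1c stood at 52.15, 36.35 and 85.2 in MSC and at 10.75, 5.05 and 28.6 in JG. There the groups lay apart but the test was not passed (-1.28 ± 0.39, adjusted p = 0.0835 over all probe sets). Cacna1a, the pore of P/Q-type channels, stood at 112, 141 and 194 in MSC and at 224, 133 and 146 in JG, again with overlap (0.16 ± 0.31, adjusted p = 0.767). The T-type pore gene Cacna1h exceeded 16 in JG sample 2 alone, at 47.7, and Cacna1e, Cacna1f, Cacna1g and Cacna1s did not exceed 20.0 on any array.

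Of 15 auxiliary subunits, 2 were called, both higher in MSC. Over all genes 7.71% were called higher in MSC. Cacna2d1 encodes an alpha2delta subunit, which helps bring channels to the cell surface. It stood at 251, 122 and 201 in MSC and at 64.7, 32.4 and 76.0 in JG. The lowest MSC sample lay above the highest JG sample, with means of 192 ± 64.8 and 57.7 ± 22.6 (-1.49 ± 0.37, adjusted p = 0.0443). All 5 of its probe sets had a lower JG mean on the log2 scale, and another of them was called, with 121, 185 and 125 in MSC and 3.05, 7.84 and 11.8 in JG (-2.76 ± 0.27, adjusted p = 0.00241 over all probe sets). The call of the brightest probe set held in 1 of 6 fits with a sample left out, the fit without JG sample 1, and its adjusted p ran from 0.0425 to 0.159. Cacng7, of the gamma family whose members also modulate glutamate receptors, stood at 70.8, 57.2 and 85.2 in MSC and at 8.24, 23.0 and 11.4 in JG (-1.54 ± 0.28, adjusted p = 0.0163). Every JG sample lay below every MSC sample. Its call held without JG sample 1 or 2 and was lost without any other single sample, with adjusted p from 0.0109 to 0.0806. A second probe set of Cacng7 stood at 20.05, 10.3 and 65.8 in MSC and at 3.05, 16.6 and 10.3 in JG. There the groups overlapped and the test was not passed (-0.75 ± 0.47, adjusted p = 0.337 over all probe sets).

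The remaining auxiliary genes were not called. Cacna2d2 stood at 56.2, 61.3 and 52.0 in MSC and at 74.3, 64.9 and 34.2 in JG, with overlap of the groups. Cacna2d3, Cacng3, Cacng4, Cacng5 and Cacng8 had every JG sample above every MSC sample, with differences from 0.30 to 0.91 and adjusted p from 0.0822 to 0.401. None of the 5 passed the test, and none exceeded 44.03 on any array. Cacna2d3 and Cacng5 stayed under 16 on all 6 arrays, and Cacng4 did not exceed 16.66, so their order lies among dim values. Of 4 beta subunit genes listed, whose products bind the pore inside the cell, 3 were analysed here. These were Cacnb1, Cacnb2 and Cacnb4, and none was called. Cacnb4 ranged from 1.00 in JG sample 2 to 201 in JG sample 3, a spread wider than that between the groups. Cacna2d4, Cacng1, Cacng2 and Cacng6 overlapped between the groups and did not exceed 49.7.

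TRPC channels are receptor-operated cation channels that open downstream of phospholipase C. Trpc1, a member that often forms part of mixed channels, stood at 43.3, 52.5 and 29.1 in MSC and at 171, 188 and 212 in JG. The JG samples lay close together and all above the MSC samples, with means of 190.04 ± 20.4 and 41.6 ± 11.8 (1.85 ± 0.25, adjusted p = 0.0059). Both of its probe sets were called, the second at 28.8, 15.2 and 17.2 in MSC and 69.5, 121 and 106 in JG (1.65 ± 0.29, adjusted p = 0.0166 over all probe sets). The call held whichever sample was left out (adjusted p from 0.00692 to 0.035). The 250 bases before its RefSeq start, at chr9:95750349-95750598 on the minus strand, are shown because this call held across samples and probe sets.
Trpc1: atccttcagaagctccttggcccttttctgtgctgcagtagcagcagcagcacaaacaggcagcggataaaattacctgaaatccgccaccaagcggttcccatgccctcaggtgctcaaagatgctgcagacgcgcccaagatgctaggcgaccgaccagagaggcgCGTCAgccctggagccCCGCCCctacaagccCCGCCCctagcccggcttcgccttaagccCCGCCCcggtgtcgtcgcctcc
With the motifs given above, this window holds 3 GC boxes and 1 TGACG core, and it has 62.8% G and C.

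Of 8 TRPC symbols listed 7 were analysed here, and the 6 besides Trpc1 were not called. Trpc5 stood at 16.2, 18.0 and 10.7 in MSC and at 24.6, 57.3 and 37.2 in JG and Trpc7 stood at 4.32, 9.42 and 7.11 in MSC and at 15.2, 15.3 and 20.8 in JG, both with the groups apart (0.81 ± 0.29, adjusted p = 0.116 and 0.53 ± 0.22, adjusted p = 0.164). Trpc6, a diacylglycerol-gated channel of podocytes and smooth muscle, was under 16 on all arrays but JG sample 3, where it stood at 46.01. Trpc4 stayed under 16, and Trpc2 exceeded 16 only in JG samples 2 and 3, at 16.7 and 39.0. Trpc4ap stood at 33.2, 144 and 60.9 in MSC and at 63.2, 24.6 and 5.14 in JG, a wide spread in both groups (-1.05 ± 0.62, adjusted p = 0.295).

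Of 4 TRPV genes analysed, among 6 listed, 2 were called, both higher in JG (50%, against 7.7% over all genes). Trpv4, an osmotically and mechanically sensitive channel, stood at 16.3, 22.5 and 6.69 in MSC and at 56.4, 49.8 and 127 in JG. The groups did not overlap, and the means were 77.8 ± 43.0 and 15.2 ± 7.95 (1.53 ± 0.39, adjusted p = 0.046). Trpv4 has 1 probe set, which did not pass in the limma fit over all probe sets (adjusted p = 0.0515). Its call held without JG sample 1 or 2 and was lost without any other single sample (adjusted p from 0.0383 to 0.167). Trpv6, a highly calcium-selective channel of transporting epithelia, stood at 15.4, 12.7 and 14.4 in MSC and at 52.3, 42.5 and 31.6 in JG. Every MSC sample lay under 16, so its difference of 0.93 ± 0.24 is a lower bound (adjusted p = 0.0464). Its call held only in the fit without JG sample 1 among the 6 that left a sample out (adjusted p from 0.0474 to 0.162). The heat-sensitive channel gene Trpv1 stayed under 16, and Trpv2 did not exceed 17.0.

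By limma 0 of the 8 TRPM genes were called. An unadjusted p under 0.05 was found for 2 of the 8 (Trpm4 and Trpm5), against 5804 of all 18193 genes. All 8 differences were above 0, with a median of 1.06. Trpm7, a channel fused to a kinase and used for magnesium balance, stood at 465, 182 and 161 in MSC and at 246, 1417 and 1669 in JG. JG samples 2 and 3 were about 3 times as bright as the highest MSC sample or more, while JG sample 1 lay within the MSC range (1.75 ± 0.80, adjusted p = 0.189). Trpm3 stood at 16.5, 21.9 and 11.2 in MSC and at 16.5, 186 and 151 in JG, with JG samples 2 and 3 again high alone (1.68 ± 0.70, adjusted p = 0.159). Trpm4, a calcium-activated sodium channel, stood at 31.7, 31.3 and 69.8 in MSC and at 66.7, 172 and 137 in JG, where JG sample 1 lay just under the highest MSC sample (1.20 ± 0.41, adjusted p = 0.103). Trpm5, the taste-cell relative of Trpm4, stood at 17.8, 8.26 and 10.4 in MSC and at 17.8, 58.1 and 43.3 in JG, with all JG samples above MSC, sample 1 barely so (0.93 ± 0.35, adjusted p = 0.132).

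Trpm6, the magnesium channel of the distal convoluted tubule, was read differently by its 2 probe sets. The brighter stood at 13.9, 31.4 and 22.0 in MSC and at 91.3, 10.9 and 400.2 in JG. JG sample 3 was far above the rest and JG sample 2 below every MSC sample, and the gene was not called (1.49 ± 0.94, adjusted p = 0.322). The other stood at 26.8, 23.6 and 34.5 in MSC and at 83.0, 87.6 and 85.7 in JG. There the JG samples agreed closely and all lay above MSC (1.20 ± 0.21, adjusted p = 0.0181 over all probe sets). Trpm6 is the only gene of the 64 whose representative changed when brightness was taken as the mean of log2(intensity + 16), and it was then called (adjusted p = 0.0159). With array weights it was also called (adjusted p = 0.0166), and over all alternatives its adjusted p ran from 0.0159 to 0.637. Slc12a3, the cotransporter that defines the same segment, stood at 1.00, 1.13 and 1.8 in MSC and at 1623, 258 and 698 in JG. On its brightest probe set Trpm1 exceeded 16 in JG sample 2 alone, at 56.9, and other probe sets reached 23.0 in JG sample 2 and 19.8 in JG sample 3. Trpm2 and Trpm8 stayed under 16 on theirs, but a second probe set of Trpm2 stood at 20.5 in JG sample 2.

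Piezo channels open on membrane stretch, and both were higher in MSC. Piezo2 stood at 1862, 1233 and 1823 in MSC and at 19.1, 8.96 and 39.4 in JG. All MSC samples were bright and no JG sample exceeded 40, with means of 1639 ± 353 and 22.5 ± 15.5 (-5.48 ± 0.37, adjusted p = 0.000331). The call held whichever sample was left out (adjusted p from 0.000959 to 0.00462). A second, dimmer probe set gave 135, 28.4 and 63.8 in MSC and 11.7, 39.8 and 10.6 in JG, where JG sample 2 lay within the MSC range (-1.23 ± 0.53, adjusted p = 0.18 over all probe sets). Piezo1 stood at 351, 719 and 598 in MSC and at 153, 100.3 and 116 in JG. The groups did not overlap, and the means were 556 ± 188 and 123 ± 27.3 (-1.998 ± 0.34, adjusted p = 0.0125). It did not pass without MSC sample 2 (adjusted p = 0.0578) or 3 (0.0645) and held without any other single sample, from 0.011 upward.

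The window before the Piezo1 start, at chr8:122551330-122551579 on the minus strand, is printed for comparison with those of the genes higher in JG.
Piezo1: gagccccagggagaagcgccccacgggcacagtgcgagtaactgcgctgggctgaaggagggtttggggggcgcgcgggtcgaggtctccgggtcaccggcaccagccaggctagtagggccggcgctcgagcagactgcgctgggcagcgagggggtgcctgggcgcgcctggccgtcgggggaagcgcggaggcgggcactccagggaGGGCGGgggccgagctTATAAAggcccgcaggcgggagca
It holds a TATA box and a GC box near the start and no TEAD element, CArG box or TGACG core, with 74.0% G and C. Of 8 smooth muscle markers 5 were called higher in MSC, like the Piezo genes, among them Acta2, which stood at 8050.4, 8681 and 8467 in MSC and at 767, 1069.9 and 1119.8 in JG. Myh11 was called the other way, at 98.4, 227 and 44.5 in MSC and 1003, 718 and 524 in JG (2.64 ± 0.54, adjusted p = 0.0244), and Des and Myocd were not called. Whether these markers bear on the Piezo difference was not tested.

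**Figure D2:**
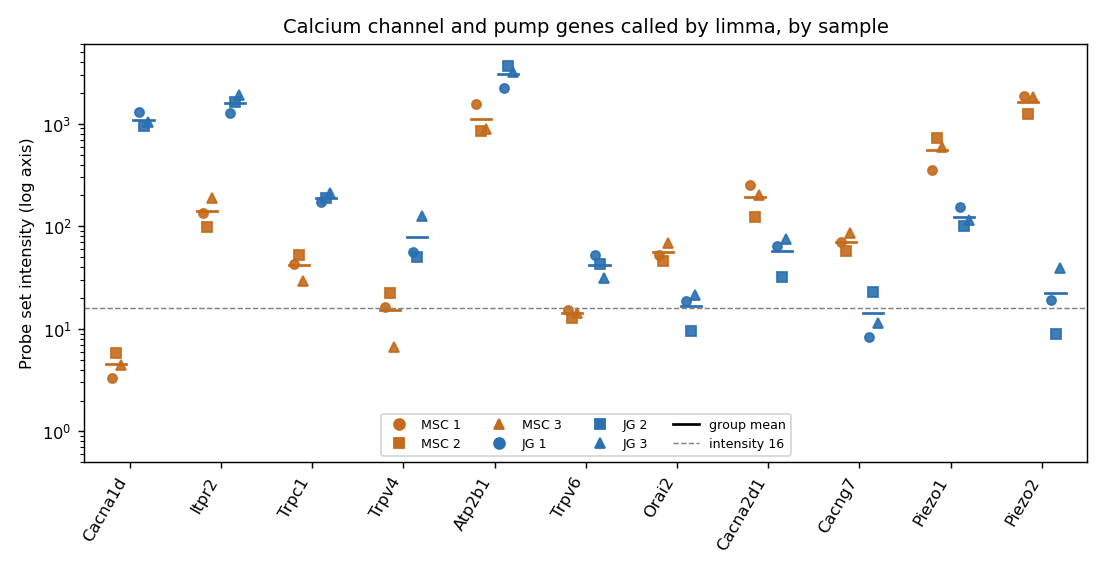
Intensity of the 11 called genes in each sample on a log axis, with horizontal bars for the group means and a dashed line at 16. Cacna1d and Piezo2 show the widest separation, whereas Trpv4, Trpv6, Orai2 and Cacng7 lie near 16 in the dimmer group.

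Store-operated entry starts when Stim proteins sense an emptied reticulum and open Orai pores in the plasma membrane. Of its 5 genes 1 was called (20%, against 15.4% of all genes in either direction) and 4 had differences below 0 (median -1.14). Orai2 stood at 52.5, 45.99 and 68.8 in MSC and at 18.9, 9.51 and 21.6 in JG. Every JG sample lay below every MSC sample (-1.14 ± 0.27, adjusted p = 0.0362). Its call held only without JG sample 1 among the fits with a sample left out (adjusted p from 0.0312 to 0.147). The second Orai2 probe set stood at 33.3, 47.4 and 57.0 in MSC and 41.1, 2.32 and 7.28 in JG, which did not pass the test (-1.08 ± 0.46, adjusted p = 0.181 over all probe sets).

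Stim1, the main sensor, stood at 121, 150.5 and 155 in MSC and at 33.5, 97.9 and 39.5 in JG. The groups did not overlap, but the test was not passed (-1.21 ± 0.37, adjusted p = 0.0761). It was called without JG sample 2 (adjusted p = 0.0116, with a range from 0.0116 to 0.227 over the 6 fits). Its other probe set stood at 38.0, 248 and 72.8 in MSC and at 8.36, 8.04 and 1.68 in JG (-2.31 ± 0.59, adjusted p = 0.0518 over all probe sets). With the mean of both probe sets the difference was -1.76 (adjusted p = 0.0254), and with the probe set of suffix x left out it was -2.31 (0.0468). Orai3 stood at 75.1, 141 and 168 in MSC and at 107, 5.79 and 14.7 in JG. JG sample 1 lay within the MSC range and the other JG samples far below it (-1.67 ± 0.68, adjusted p = 0.152). Stim2, which senses small falls of store calcium, stood at 116, 171 and 110.2 in MSC and at 118, 9.0 and 124 in JG, so that JG sample 2 alone was low (-0.91 ± 0.69, adjusted p = 0.413). Orai1, the pore best known from lymphocytes, stood at 33.8, 13.7 and 17.7 in MSC and at 50.0, 15.9 and 41.4 in JG and overlapped between the groups (0.43 ± 0.37, adjusted p = 0.474).

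Among the channels that release calcium from the reticulum, Itpr2 was called higher in JG. It encodes the inositol trisphosphate receptor with the highest affinity for its ligand. Itpr2 stood at 135, 98.6 and 189 in MSC and at 1283, 1623 and 1919 in JG. The lowest JG sample was more than 6 times the highest MSC sample, and the means were 1609 ± 318 and 141 ± 45.6 (3.40 ± 0.31, adjusted p = 0.0012). The call held whichever sample was left out (adjusted p from 0.00201 to 0.0113). Of its 6 probe sets 3 were called, all higher in JG. The brightest carries the suffix s, like that of Cacna1d, and the others called do not. One of these stood at 44.1, 3.92 and 33.4 in MSC and at 198, 528 and 327 in JG (3.13 ± 0.54, adjusted p = 0.0157 over all probe sets) and another stood at 1.14, 6.96 and 11.6 in MSC and at 58.5, 98.2 and 71.4 in JG (2.03 ± 0.29, 0.00868). Another, at 121, 101 and 128 in MSC and 195, 187 and 190.2 in JG, differed by only 0.65 ± 0.21 (adjusted p = 0.0984), and the dimmest by -0.29 ± 0.32, with 0.69 ± 0.52 for the last. The size of the difference thus depended on the probe set, and it was 1.60 for the mean of all 6.

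The window before the Itpr2 start, at chr6:146502224-146502473 on the minus strand, is given because Itpr2 and Cacna1d had the largest differences upward in JG.
Itpr2: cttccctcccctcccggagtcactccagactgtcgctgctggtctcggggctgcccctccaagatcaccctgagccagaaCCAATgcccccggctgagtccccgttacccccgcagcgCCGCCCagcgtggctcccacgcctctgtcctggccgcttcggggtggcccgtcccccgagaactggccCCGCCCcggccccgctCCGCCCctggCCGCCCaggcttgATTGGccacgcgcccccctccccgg
It holds 4 GC boxes and 2 CCAAT boxes and no TATA box, with 74.4% G and C and 22 CpG pairs. The 12 windows of called genes belong to 10 of the 11 called genes. Among these windows, 10 held a GC box, 4 a TGACG core and none a CArG box. The shares were 32.7%, 17.8% and 1.47% over all windows and 47.1%, 19.1% and 2.94% over windows of the 64 genes. A match or its lack is a description of these letters and not of binding.

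Of 6 release channel genes listed 5 were analysed here, and the 4 besides Itpr2 were not called. Itpr3, common in epithelia, stood at 12.3, 25.2 and 34.3 in MSC and at 2.63, 1.00 and 6.03 in JG. The JG samples all lay under the MSC samples (-1.02 ± 0.29, adjusted p = 0.0642). The ryanodine receptor genes encode the release channels of muscle. On their brightest probe sets Ryr1 and Ryr3 did not exceed 22.7, while another probe set of Ryr3 reached 46.2 in JG sample 2 and a further one 27.2 in JG sample 1. Ryr2 stood at 3.39, 77.6 and 6.03 in MSC and at 19.1, 14.5 and 21.6 in JG, with MSC sample 2 alone high (0.00 ± 0.61, adjusted p = 0.998).

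Calcium pumps carry calcium against its gradient at the cost of ATP. At the plasma membrane, Atp2b1, the widespread isoform and the main one of basolateral membranes in transporting epithelia, stood at 1567, 844 and 894 in MSC and at 2237, 3646 and 3227 in JG. Every JG sample lay above every MSC sample, with means of 3037 ± 724 and 1102 ± 404 (1.48 ± 0.34, adjusted p = 0.0362). Its call was lost without MSC sample 2 or 3 or JG sample 2 or 3 (adjusted p from 0.0199 to 0.143 over the 6 fits). The other 2 probe sets did not share the difference. They stood at 761, 637 and 468 and 318, 405 and 308 in MSC and at 838, 469.6 and 381 and 584, 154 and 199 in JG (-0.19 ± 0.37 and -0.35 ± 0.50). The mean of all 3 probe sets differed by 0.31 (adjusted p = 0.461).

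Atp2b4 stood at 5.74, 1.58 and 5.07 in MSC and at 4.2, 174 and 48.5 in JG. JG sample 1 lay within the MSC range and the other 2 above it (1.65 ± 0.77, adjusted p = 0.198). Atp2b2 was above MSC in every JG sample, at 10.3, 10.3 and 8.87 in MSC and 15.2, 19.3 and 33.3 in JG (0.55 ± 0.26, adjusted p = 0.195), and Atp2b3 stayed under 16. In the reticulum, Atp2a2, the housekeeping SERCA pump, stood at 2009, 2114 and 1898 in MSC and at 2061, 2048 and 2567 in JG. The groups overlapped (0.14 ± 0.22, adjusted p = 0.701), and the mean of its 6 probe sets gave -0.07. Atp2a3, a SERCA pump of blood, endothelial and some epithelial cells, stood at 10.0, 1.35 and 8.17 in MSC and at 4.78, 276 and 396 in JG. JG samples 2 and 3 were bright and the other 4 samples under 16 (2.61 ± 1.11, adjusted p = 0.164). The second Atp2a3 probe set lay under 16 on all arrays. Atp2a1, the pump of fast muscle, overlapped between the groups (0.15 ± 0.28, adjusted p = 0.759).

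Secretory pathway pumps load the Golgi with calcium and manganese. Atp2c1 stood at 582, 399 and 333 in MSC and at 517, 538 and 1015 in JG, with JG sample 3 alone above the MSC range (0.61 ± 0.37, adjusted p = 0.305). The mean of its 5 probe sets differed by -0.17. Atp2c2, its epithelial relative, stood at 5.32, 8.42 and 4.71 in MSC and at 8.58, 57.2 and 39.2 in JG. All JG samples lay above MSC, with sample 1 barely so (1.07 ± 0.43, adjusted p = 0.147).

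Many results changed when JG sample 1 was left out. In 7 of the 64 genes JG samples 2 and 3 lay above every MSC sample and JG sample 1 did not (10.9%, against 11.2% of all genes). These were Atp2a1, Atp2a3, Atp2b4, Trpc2, Trpm3, Trpm4 and Trpm7. In 5 genes (7.81%, against 8.48% of all genes) JG sample 1 alone failed to lie below MSC, namely Cacna2d4, Cacnb1, Orai3, Trpc4ap and Trpv2. Without JG sample 1, 16 of the 64 genes were called higher in JG and 7 higher in MSC, and 12 of these were not called with all samples. The largest of them were Atp2a3 (3.97, adjusted p = 0.00125), Trpm7 (2.60, 0.0156) and Trpm3 (2.51, 0.00288) upward and Orai3 (-2.42, 0.00975) downward. Over the 6 fits their adjusted p ran from 0.00125 to 0.349, from 0.0156 to 0.421, from 0.00288 to 0.357 and from 0.00975 to 0.363. Cacna1b, Cacng5, Trpc5, Trpm4, Trpm5, Atp2b4 and Atp2c2 upward and Cacnb1 downward made up the rest. Over all genes the count rose from 2803 to 5301 in the same fit. The distal tubule markers summed to 15393 in JG sample 1, 4170 in sample 2 and 10418 in sample 3, with JG sample 1 the highest. By summed intensity it was also the highest JG sample for thick ascending limb, endothelial and mesenchymal stromal markers. Single markers of the endothelial and stromal lists did not all share this order. Esam stood at 243, 71.8 and 153 in JG samples 1, 2 and 3, but Cldn5 at 56.4, 210.7 and 58.15. Pdgfra stood at 1464, 32.8 and 398 in these samples, but Itgb1 at 561, 1488 and 1192. By the sums JG sample 1 was the lowest for the collecting duct (4789, against 6101 and 7348), leukocyte (1665, against 2875 and 4025) and podocyte markers (521, against 1987 and 1919). The juxtaglomerular (3025, against 3537 and 3667) and smooth muscle sums (2112, against 2153 and 2259) were also lowest there, but single markers differed. Rgs5 and Gja5 were lowest in JG sample 1, but Crip1, Agtr1a, Kcnj8 and Aldh1a1 were highest there. Among smooth muscle markers Acta2 and Cnn1 were lowest in JG sample 1, but Myh11, Lmod1, Des and Myocd were highest there. The part of these differences in the results was not tested.

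Probe sets of the same gene did not always show the same order of samples. The 64 genes had 144 probe sets, and 43 genes had more than 1. Of the 8 called genes with several, a further probe set passed the test with an equal sign for 3 (Itpr2, Cacna2d1 and Trpc1) and with the opposite sign for 0. For Trpm7, 3 of 4 probe sets were highest in JG samples 2 and 3, the brightest being described above. The remaining probe set stood at 286, 139 and 227 in MSC and at 234, 29.9 and 64.9 in JG. There JG samples 2 and 3 were the lowest of all 6 samples (-1.20 ± 0.65). Atp2a2 showed a similar split. One of its probe sets stood at 529, 191 and 160.3 in MSC and at 63.0, 1025 and 1047 in JG, and another stood at 257, 278 and 210.1 in MSC and at 223, 58.0 and 131 in JG. JG samples 2 and 3 thus lay highest on the first and lowest on the second. Which transcript ends these probe sets read was not analysed here.

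**Figure D3:**
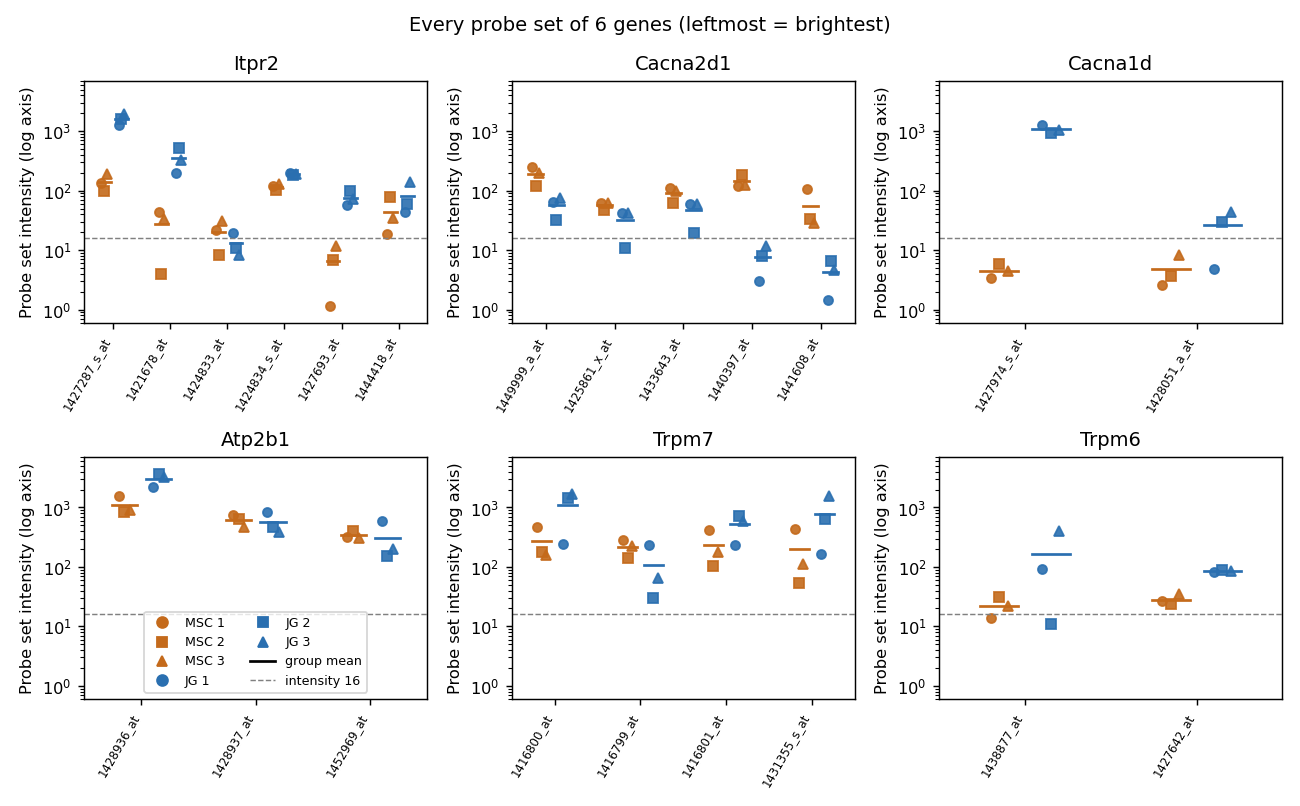
Intensity on a log axis of every probe set of Itpr2, Cacna2d1, Cacna1d, Atp2b1, Trpm7 and Trpm6 in each sample, with bars for group means and a dashed line at 16. The 5 probe sets of Cacna2d1 all lie lower in JG, whereas JG samples 2 and 3 lie above MSC on 3 probe sets of Trpm7 and below it on the remaining 1, and above MSC only on the brightest of Atp2b1.

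Other genes of calcium handling, outside the symbol rule, were read from 8 lists with 111 symbols, of which 101 were measured. Of these 9 were called higher in JG (8.91%) and 8 higher in MSC (7.92%), close to the shares over all genes. The median difference was 0.05. Calb1, S100g and Slc8a1 are carriers of transcellular calcium in the distal nephron, the first pair as buffers and the last as the basolateral sodium-calcium exchanger. Calb1 stood at 4.58, 13.9 and 8.2 in MSC and at 1899, 270.3 and 1242 in JG. S100g stood at 22.5, 12.1 and 18.4 in MSC and at 3525, 534 and 2022 in JG. Slc8a1 stood at 20.3, 12.2 and 8.59 in MSC and at 285, 200.2 and 886 in JG. All JG samples lay above all MSC samples for each, but JG sample 2 was the lowest of the JG samples in all 3. The differences were 5.17 ± 0.70, 5.57 ± 0.67 and 3.73 ± 0.55 (adjusted p = 0.00564, 0.00361 and 0.00763). Calb1, S100g and Pvalb are also in the distal tubule marker list, so they are no measure apart from it.

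Among 14 buffers and reticulum proteins 3 were called higher in JG, with Pvalb (3.54 ± 0.76, adjusted p = 0.0281) as the other, and 2 higher in MSC. The latter were the reticulocalbin genes Rcn3 (-2.64 ± 0.65, adjusted p = 0.0432) and Rcn1 (-1.97 ± 0.38, adjusted p = 0.0201). In this list 21.4% were called higher in JG and 14.3% higher in MSC, against 7.7% and 7.71% of all genes. Calr, the calcium-storing chaperone of the reticulum, stood at 5875, 5810.2 and 4886 in MSC and at 7617, 6464 and 7529 in JG. The groups lay apart but the test was not passed (0.38 ± 0.22, adjusted p = 0.288). Of 8 exchangers only Slc8a1 was called in either direction (12.5%). The share was 13.3% for the 15 regulators and 12.5% for the 8 mitochondrial genes below, against 15.4% of all genes. Of 15 regulators of pumps and release channels, Pln (1.77 ± 0.38, adjusted p = 0.0268), the SERCA inhibitor phospholamban, was higher in JG, and Septin7 (-1.67 ± 0.30, adjusted p = 0.015) in MSC. Of 8 mitochondrial genes Letm1 (1.17 ± 0.26, adjusted p = 0.0311) was higher in JG, and Mcu, the uniporter pore, stood at 422, 660.1 and 737 in MSC and at 137, 602 and 455 in JG without a call (-0.77 ± 0.56, adjusted p = 0.39).

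Upstream of release, 2 of 12 genes of Gq and phospholipase C were called (16.7%), both higher in MSC. Over all genes 15.4% were called in either direction and 7.71% higher in MSC. Gnaq stood at 469, 273 and 526 in MSC and at 185, 162 and 104 in JG (-1.39 ± 0.35, adjusted p = 0.0451) and Plcb4 stood at 256, 242 and 218 in MSC and at 50.4, 75.8 and 79.7 in JG (-1.60 ± 0.25, adjusted p = 0.00908). Neither showed overlap of the groups. Downstream, 5 of 20 calmodulin-linked genes had an unadjusted p under 0.05 by limma in either direction (5804 of 18193 over all genes). Called higher in MSC were 3 of the 20 (15%, against the same 15.4% and 7.71%), and 0 were called higher in JG. These were Camk2d (-2.65 ± 0.45, adjusted p = 0.0128), Nfatc3 (-1.63 ± 0.40, adjusted p = 0.0434) and Rcan2 (-1.44 ± 0.36, adjusted p = 0.043), a kinase, a calcineurin-dependent transcription factor and a calcineurin regulator. The calcium-inhibited adenylyl cyclases, which couple calcium to renin release in JG cells, were not called. Adcy5 stood at 59.1, 24.6 and 29.7 in MSC and at 45.0, 115 and 57.6 in JG, and Adcy6 stood at 265, 225 and 329.98 in MSC and at 262, 57.4 and 187 in JG (0.69 ± 0.40, adjusted p = 0.28 and -0.83 ± 0.52, adjusted p = 0.316). With the calcium-activated diesterases, 0 of these 5 genes passed the test, and 1 had an unadjusted p under 0.05.

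Of 19 other calcium-permeable channels and sensors 3 were called higher in JG (15.8%, against 7.7% over all genes). Mcoln3, an endolysosomal channel, stood at 2.93, 5.04 and 4.43 in MSC and at 51.5, 56.6 and 75.2 in JG (1.93 ± 0.23, adjusted p = 0.00354). Tpcn1, the lysosomal pore gated by phosphoinositides, stood at 732, 1152 and 1203 in MSC and at 2519.8, 2502 and 3294 in JG (1.44 ± 0.29, adjusted p = 0.0225). P2rx1, an ATP-gated channel, stood at 20.4, 26.9 and 26.8 in MSC and at 64.8, 104 and 84.0 in JG (1.29 ± 0.25, adjusted p = 0.0198). For each of them every JG sample lay above every MSC sample. Casr, the calcium-sensing receptor, which is abundant in the thick ascending limb, stood at 5.3, 7.69 and 8.22 in MSC and at 159.5, 12.9 and 56.2 in JG and did not pass the test (1.64 ± 0.63, adjusted p = 0.134). Of the 17 calls in these lists 4 held whichever sample was left out: Calb1, S100g, Slc8a1 and Mcoln3, with highest adjusted p of 0.0348, 0.0259, 0.0439 and 0.0266. The other 13 were lost in at least 2 of the 6 fits, with highest adjusted p from 0.0518 (Plcb4) to 0.167 (Gnaq). Without MSC sample 1, 2 or 3 the 8 calls higher in MSC became 0, 0 and 2 by limma, with 15, 13 and 12 at an unadjusted p under 0.05, and the 9 higher in JG became 4 each time. Without JG sample 3 they became 4 and 5, and without JG sample 1 they became 14 and 15.

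**Figure D4:**
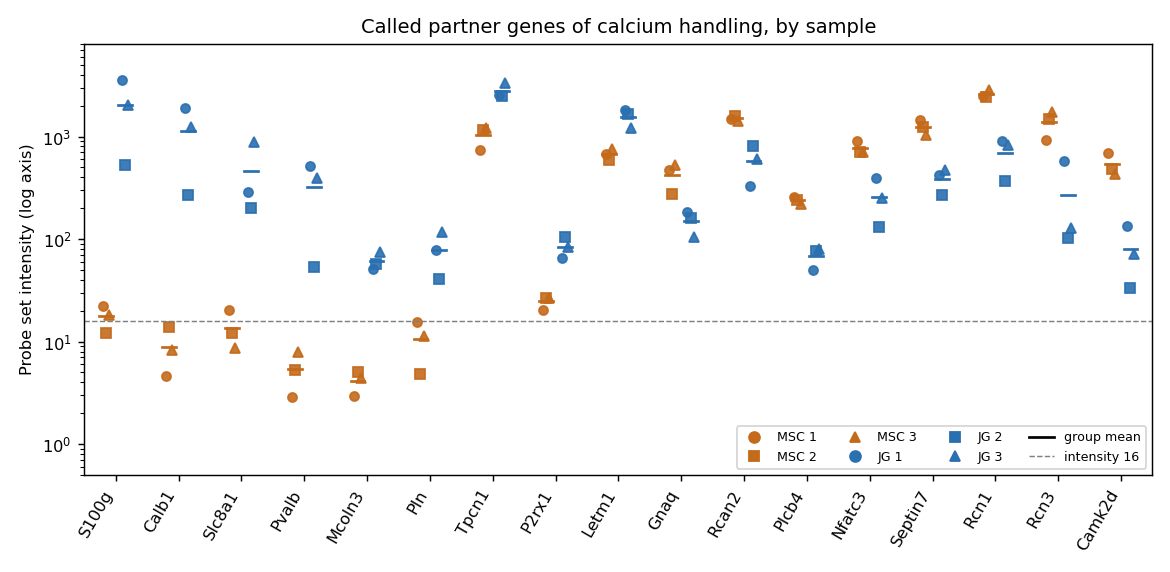
Intensity on a log axis of the 17 called partner genes in each sample, with bars for group means and a dashed line at 16. S100g, Calb1, Slc8a1 and Pvalb are widely apart between groups but spread within JG, where JG sample 2 is the lowest.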

How the data were processed

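Total RNA from 3 MSC and 3 JG samples was labelled with biotin from 100 ng and hybridised to single-channel Affymetrix mouse arrays, per the labels. The deposited table holds linear intensities of probe sets on each array. The authors' steps of summary, background correction and scaling are not given in the sources used here. Of 45037 probe sets, 34945 are paired with 1 gene in the platform annotation, 932 with several (not used) and 9160 with none. Gene identifiers of 34741 were found in a RefSeq table, and 0 symbols changed. Each of 18193 genes was read by the probe set with the highest mean intensity. Values entered lmFit and eBayes of limma 3.58.1 (R 4.3.3) as log2(intensity + 16), with no filter or further scaling, and p-values were adjusted by Benjamini-Hochberg over all genes. The number of arrays limits the precision, and since separate animals or cultures are not stated, p-values measure the spread between these samples, which may be technical. Replicate numbers did not pair the samples (correlations of deviations -0.199, -0.00794 and -0.0108), and no 2 arrays held the same values throughout. Alternatives were other pseudocounts, filters on dim genes, scalings, probe set choices, variance priors, array weights, a replicate block, a plain t statistic and leaving out each sample. The fit was tested on simulated data. Genes and lists were chosen with earlier results of these data known. Values by sample are given for called genes and for those above the median level, and other members mostly by range. Those of Cacna1b, Cacna1c, Cacna2d2, Trpc4ap, Trpc5, Trpc7, Trpm5, Itpr3, Ryr2, Orai1, Atp2b2, Atp2b4 and Atp2c2 are also given by sample, chosen after their values were seen. Of each partner list up to 4 called genes with the largest difference are named. Rcn1, Calr, Mcu, Adcy5, Adcy6, Casr and markers beside results were named after their values were seen. Promoter windows are from RefSeq (GRCm38.p6), and 52 of the 64 genes had 1. Figures used matplotlib 3.10.9.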

Additional observations from a re-analysis of the deposited data

How the results depend on the processing

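The 6 genes called higher in JG became 22 with array weights and 3 with the replicate block, and the 5 higher in MSC became 9 and 1. With genes under the median left out those higher in MSC were 3, of 14 members tested, and with an unmoderated t statistic 2. Leaving out 1 sample gave 3 to 16 and 1 to 7. Of the 11 calls, 11 were shared with the fit with array weights, 4 with the replicate block and 5 with the unmoderated statistic. With a pseudocount of 1, 7 of the 11 were shared, and 8 with a pseudocount of 64. An intensity trend with robust estimation shared 7, the mean of all probe sets 8, and quantile normalization and median centring 10 each. The partner genes higher in JG became 5 with genes under the median left out, 14 with array weights and 4 with an unmoderated statistic (4 to 15 with a sample left out). Those higher in MSC became 5 with a pseudocount of 1, 16 with array weights, 2 with the replicate block and 1 with an unmoderated statistic (0 to 14, with 0 by limma without MSC sample 1 or 2). Over all genes the 2803 calls became 6429 with array weights, 1594 with the block, 1328 with an unmoderated statistic and 1149 to 5301 with a sample left out. The cause was not tested. The sign of the difference held under every alternative run for 44 of the 64 genes, the 11 called ones among them. The rest reached or crossed 0 at least once. Of the genes above the median level these were Atp2a2 (-0.068) and Atp2c1 (-0.17) with the mean of all probe sets, and Cacna1a without MSC sample 1 (-0.011) or JG sample 1 (-0.053, the lowest with a sample left out, against 0.34 as the highest). With the s and x probe sets left out Cacna1d differed by 0.90 (adjusted p = 0.206), against at most 0.00173 in the 6 fits with a sample left out. Taking brightness from mean log2 values, added after seeing the data, gave 7 and 5 members, 8 and 8 partners and 2790 genes. Replicate numbers share only a number, so calls lost under the block are not described as weaker effects. Signal limits the 12 members under 16 on all arrays, whose differences are understated.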

Other observations

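The upstream windows of the 64 genes can be described as a set. RefSeq held 68 windows for 52 of them, with a median of 57.6% G and C and 9 CpG pairs in 250 bases, against 52.4% and 6 over all 32851 windows. A GC box was present in 47.1% of the member windows (32.7% of all windows), a CCAAT box in 26.5% (33.8%), a TATA box in 7.35% (12.4%), a TGACG core in 19.1% (17.8%), a TEAD element in 14.7% (12.6%) and a CArG box in 2.94% (1.47%). Windows of the same gene can overlap, and these shares carry no test. Trpv6, whose window has 49.6% G and C and 1 CpG pair, and the first start of Cacna1d are the called genes' windows with the fewest CpG pairs.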
